A study of Homo sapiens with 12 samples.

Results

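Selenoproteins carry selenocysteine, the selenium analogue of cysteine, at a position encoded by a UGA codon. The genes described here are 9 selenoproteins other than the lipid hydroperoxide peroxidase GPX4 and the thioredoxin reductases: GPX1, GPX3, SEPW1, SEPN1, SEP15, SEPHS2, SELT, SELM and SELK. They were taken by symbol from the count data, which list 55765 genes under older names, and all 9 were found. In current nomenclature SEPW1 is SELENOW, SEPN1 is SELENON, SEP15 is SELENOF, SELT is SELENOT, SELM is SELENOM and SELK is SELENOK.

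The mRNA of Hs 578T cells, a triple-negative breast cancer (TNBC) line, was sequenced in 4 groups of 3 libraries each. The cells had been transduced with lentiviral vectors for GFP, the control, or for exogenous full-length NRF2, the transcription factor encoded by NFE2L2 that drives antioxidant genes. Each population was grown for 8 h in cystine-free medium, which still held methionine, glutamine and serum, either without Cyss (cystine, the oxidised dimer of cysteine) or with 0.8 mM added back. All groups therefore carried a lentiviral transgene, and nothing states that the 3 libraries of a group came from separate cultures, so p-values measure only the spread between these libraries.

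The 12 libraries held 27250993 to 44596870 reads on genes, with a median of 32857536. NFE2L2 fitted its labels, with counts-per-million values (CPM) of 108 to 139 in the 6 GFP libraries and 196 to 250 CPM in the 6 NRF2 libraries. The labels call the line epithelial, but EPCAM, CLDN3, CLDN7 and KRT19 had at most 3 reads in any library, whereas the mesenchymal markers VIM and FN1 stood at no less than 4243 and 23364 CPM. The summed level of 7 epithelial markers, nearly all of it KRT18 and KRT8, was 33.0 to 36.9 CPM in GFP cells with Cyss, 39.5 to 49.9 without, 27.8 to 30.6 in NRF2 cells with Cyss and 39.4 to 46.9 without. The part of that shift in the results below was not tested. Among all genes, replicate 3 of the GFP cells without Cyss stood apart from its group on the first principal component, which held 48.9% of the variance, at 4.08 against -5.78 and -3.82. On the second, with 18.7% of the variance, replicate 1 of the NRF2 cells without Cyss was at 7.03 against 1.48 and -1.50 in its group.

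Ribosomes insert selenocysteine at UGA, normally a stop codon, with the help of a hairpin in the 3′ end of the mRNA (the SECIS element), the binding protein SECISBP2, the elongation factor EEFSEC and a dedicated tRNA. The selenium donor for that tRNA is selenophosphate, which SEPHS2, itself a selenoprotein, makes. Selenoproteins are mostly redox enzymes in which selenocysteine sits in the active site, and a number of them fold or repair proteins in the endoplasmic reticulum (ER). When selenocysteine is not inserted, a UGA that lies well upstream of the last exon junction can mark the mRNA for nonsense-mediated decay, to which members of the family are known to differ in sensitivity.

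The selenocysteine codon was located in the GENCODE 44 transcript of each gene lifted to GRCh37, the build of the count data. The genes shown are those on which the results below turn: SEPW1, GPX1 and SELK are the 3 called when the responses of both populations were compared, SELT is a gene with an early codon that was not called, and SEPHS2 has no exon junction. Each run gives 15 bases before and 12 after the codon, 5′ to 3′ along the mRNA, with the codon (UGA, TGA in DNA) in capitals.
SEPW1, codon 13 of 87, chr19:48283989-48283991, plus strand: gtttattgtggcgctTGAggctacaagtcc
GPX1, codon 49 of 203, chr3:49395565-49395567, minus strand: aatgtggcgtccctcTGAggcaccacggtc
SELK, codon 92 of 94, chr3:53919858-53919860, minus strand: ccaatggctggtggaTGAggaaggtaaatg
SELT, codon 49 of 195, chr3:150340179-150340181, plus strand: cagatttgtgtttccTGAggttataggcgg
SEPHS2, codon 60 of 448, chr16:30456869-30456871, minus strand: tccggcatgaagggcTGAggctgcaaggtc

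All of these codons are exonic and inside the coding region. In SEPW1 the codon lies in exon 2 of 6, near the start of the protein, and 243 bases before the last exon junction. In GPX1 it lies in exon 1 of 2 and 105 bases before the only junction. SELK differs, since its codon is the third from the end of the coding region, in exon 4 of 5 and only 5 bases before the last junction. The distance was 470 bases in SELT, 240 in GPX3, 135 in SELM and 78 in SEP15, and SEPN1, with 2 such codons, had 1221 and 216. Over the family described, 7 of 9 genes had the codon more than 50 bases upstream of the last junction. The exceptions were SELK and the single-exon SEPHS2.

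**Figure D1:**
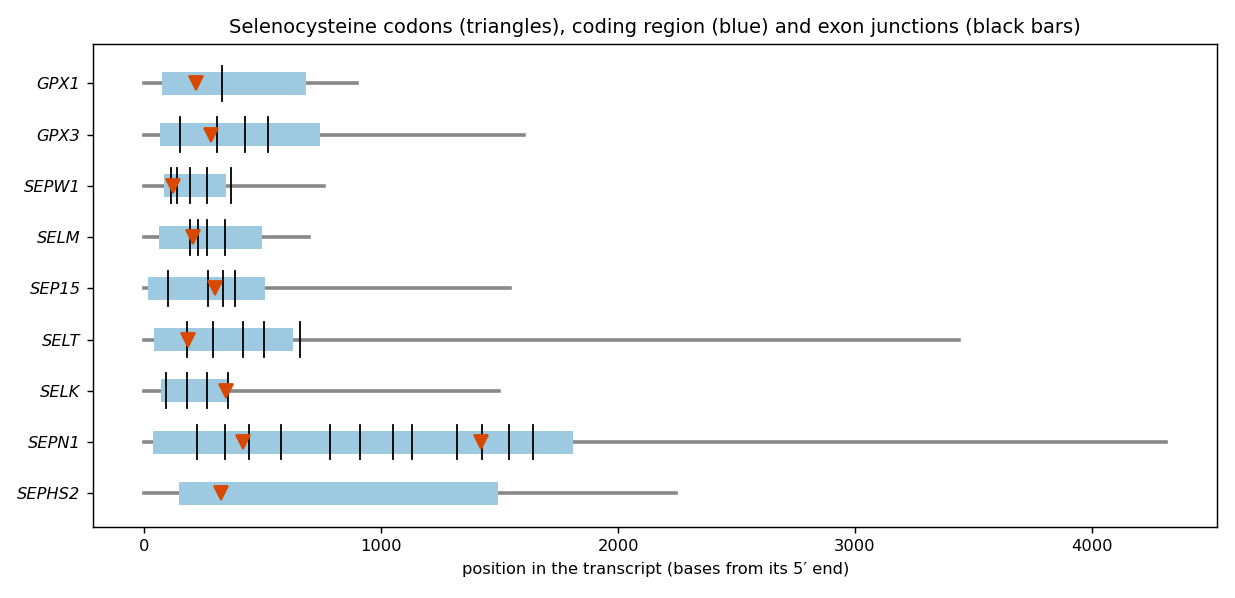
The transcripts of the 9 genes are drawn to scale from their 5′ end in bases, with the coding region in blue, exon junctions as black bars and selenocysteine codons as triangles. The codon of SEPW1 sits 243 bases and that of GPX1 105 bases before the last junction, whereas that of SELK lies 5 bases before it.

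The levels of the genes were compared per length, as CPM divided by the length of that transcript in kilobases (RPKM). In GFP cells with Cyss, SEP15, an ER protein that binds the glycoprotein folding sensor, was highest at 146 ± 8.56 RPKM (SD, n = 3). The cytosolic peroxidase GPX1 followed at 126 ± 11.2 RPKM, and SELM, an ER thiol-disulphide protein related to SEP15, at 83.0 ± 4.80 RPKM. The small cytosolic protein SEPW1 had 50.02 ± 2.06 RPKM. SELK, an ER membrane protein, had 29.0 ± 0.801 RPKM, SEPHS2 26.3 ± 0.631 RPKM and SELT, an ER-resident thioredoxin-like protein, 22.3 ± 1.92 RPKM. SEPN1, an ER protein that guards calcium handling and is mutated in myopathy, stood at 12.7 ± 0.382 RPKM. The plasma peroxidase GPX3 was barely detected, at 0.198 ± 0.0540 RPKM. With these lengths the order was the same in all 4 groups, and the ranges of neighbours in it overlapped in 1 case, SELK and SEPHS2 in NRF2 cells without Cyss. The order depends on the length used, since reads were counted over all exons of a gene. Over the union of GENCODE 44 exons, SEP15 (102 RPKM) and GPX1 (79.2 RPKM) were still highest in GFP cells with Cyss and GPX3 lowest, but SEPW1, with 5.156 kb of exons, fell from rank 4 to rank 8 at 7.35 RPKM, and SELM from rank 3 to rank 6 at 18.1 RPKM.

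Removal of Cyss from GFP cells, which asks how the TNBC cells respond to the loss of external cystine, called none of the 9 selenoproteins, where 2.10% of all 17452 genes tested were called (1.57% higher and 0.533% lower without Cyss). A call needed an adjusted p (edgeR quasi-likelihood test, Benjamini-Hochberg) below 0.1 and a log2 fold change (log2FC) above 0.32 in size. At an unadjusted p below 0.05 there were 3 of 9, and DESeq2 also called 0. For scale, VIM, at an unadjusted edgeR p of 0.0491, ranked 3122 of the 17452 genes by p. Leaving GPX3 aside, the log2FC of the other 8 ranged from -0.20 to 0.13, and their 95% intervals together ran from -0.31 to 0.22. The median over the 9 genes was -0.08, against 0.00 over all genes. The 3 libraries with Cyss did not overlap the 3 without for 5 of the 9 genes, where this held for 23.7% of all genes: SEPW1, SEPN1 and SELT were lower without Cyss, and SEPHS2 and SELK higher.

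SEPW1, a glutathione-binding redox protein of the cytosol, had the lowest log2FC of these 8. It measured 36.1, 39.1 and 38.5 CPM in the GFP libraries with Cyss and 33.9, 32.3 and 32.7 CPM without. All libraries without Cyss lay below all those with it, but the log2FC of -0.20 (SE 0.0489, edgeR adjusted p = 0.0410) was smaller than the fold threshold, and without the library that stood apart the adjusted p was 0.108. SEPHS2 was the other gene below 0.1, at 57.3, 59.5 and 59.9 CPM with Cyss and 65.5, 64.6 and 63.9 CPM without. Its libraries without Cyss were all higher, with a log2FC of 0.13 (SE 0.0399, edgeR adjusted p = 0.0960, and 0.149 without the library that stood apart).

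**Figure D2:**
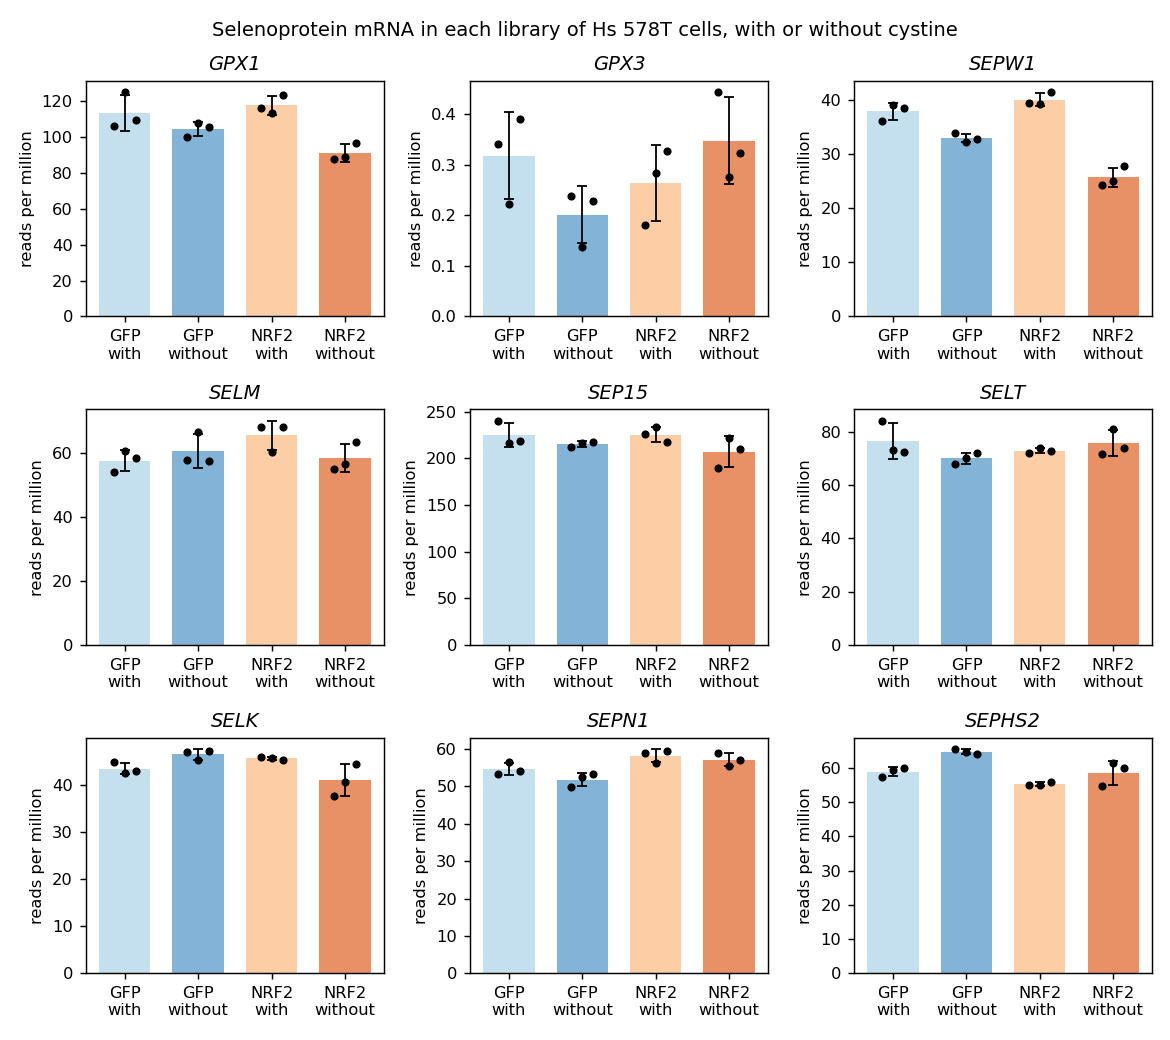
The CPM of the 9 selenoproteins is plotted for each library (points) with the group mean (bar, from 0) and SD (error bar), n = 3, for GFP and NRF2 cells with and without cystine. The 3 SEPW1 libraries of NRF2 cells without Cyss, at 24.4 to 27.7 CPM, lie below all others, and GPX3 reaches at most 0.443 CPM.

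In NRF2 cells the same deprivation lowered 2 of the 9 selenoproteins, SEPW1 and GPX1, and raised none. Over all 17266 genes tested, 5.14% fell, 6.81% rose and 11.9% were called in either direction. The median log2FC of the 9 genes was -0.12, against -0.01 over all genes, and 6 of 9 were negative. DESeq2 called the same pair. The groups did not overlap for 3 of 9 (SEPW1, GPX1 and SELK), against 37.8% of all genes.

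SEPW1 showed the larger change of the pair. It fell from 39.4, 39.2 and 41.4 CPM with Cyss to 24.4, 25.1 and 27.7 CPM without, so that every library without Cyss lay well below every library with it. The log2FC was -0.64 (SE 0.0600, edgeR adjusted p = 2.09e-06), a level 0.642 times that with Cyss. The call held when any 1 of the 6 libraries was left out, with log2FC from -0.70 to -0.60.

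GPX1, which reduces hydrogen peroxide with glutathione, fell from 116, 113 and 124 CPM to 87.6, 89.0 and 96.9 CPM. Here too the groups did not overlap, and the log2FC was -0.37 (SE 0.0521, edgeR adjusted p = 0.000119). It stayed called without any 1 library, from -0.41 to -0.33. Reads of GPX1 may be shared with near-identical sequence elsewhere: its processed pseudogene GPX1P1 held 474 to 879 reads per library and gave a log2FC of -0.34 (SE 0.0727, edgeR adjusted p = 0.00392) in the same comparison. In GENCODE 44, 39.9% of the GPX1 exon bases also belong to another gene on the same strand. Whether the annotation used for counting held that gene is not known. If it did, reads there could not be assigned to 1 of the genes.

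The other peroxidase, GPX3, could not be followed. It had 5, 9 and 10 reads in NRF2 cells with Cyss and 14, 9 and 11 reads without, and between 4 and 15 in the GFP libraries. Its log2FC of 0.37 in NRF2 cells had a 95% interval from -0.40 to 1.14, so that a change in either direction was not detectable at this depth.

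The ER selenoproteins were not called. SELM measured 68.1, 60.3 and 68.1 CPM in NRF2 cells with Cyss and 55.0, 56.6 and 63.5 CPM without, which overlap, with a log2FC of -0.17 (SE 0.0633, edgeR adjusted p = 0.0747). SELK, which takes part in ER-associated degradation and calcium flux, had 46.0, 45.7 and 45.3 CPM with Cyss and 37.8, 40.6 and 44.5 CPM without. The SELK groups did not overlap, although the highest library without Cyss came close to the lowest with it, and the log2FC was -0.16 (SE 0.0595, edgeR adjusted p = 0.0736). Both genes thus passed the p threshold and not the fold threshold. Of all genes in this comparison, 29.0% passed the p threshold.

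SEP15, SELT and SEPN1 passed neither threshold. SEP15 had 226, 233 and 217 CPM with Cyss and 189.6, 222 and 210.2 CPM without, at a log2FC of -0.12 (edgeR adjusted p = 0.133) with a 95% interval from -0.24 to -0.0042, which did not include 0. SELT had 72.2, 73.8 and 73.0 CPM with Cyss and 71.8, 81.2 and 74.1 CPM without, at 0.05 with an interval from -0.06 to 0.16. SEPN1 had 58.8, 56.2 and 59.5 CPM with Cyss and 59.0, 55.4 and 57.0 CPM without, at -0.03 with an interval from -0.13 to 0.08. The groups overlapped for all 3 genes. SEPHS2, in the step of selenium supply, measured 54.9, 55.0 and 55.9 CPM with Cyss and 54.6, 61.3 and 59.9 CPM without, a log2FC of 0.08 (edgeR adjusted p = 0.284).

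Exogenous NRF2 in the presence of Cyss, compared with GFP cells in the same medium, called none of the 9 genes, against 1.56% of 17449 genes tested (1.36% higher and 0.201% lower in NRF2 cells). The share called was 0.910% without replicate 1 and 0.969% without replicate 3 of NRF2 with Cyss. By unadjusted p below 0.05 there were 3 of 9 (SELM, SEPHS2 and SEPN1), and DESeq2 called 0. SEPN1, at an unadjusted edgeR p of 0.0498, ranked 3315 of the 17449 genes by p. The log2FC of the 8 genes other than GPX3 lay between -0.09 and 0.18, with 95% intervals from -0.18 to 0.30. SELM had the highest value, at 53.9, 60.5 and 58.3 CPM in GFP cells against 68.1, 60.3 and 68.1 CPM in NRF2 cells. These overlapped by a small margin, and the log2FC of 0.18 (SE 0.0533, edgeR adjusted p = 0.0715) was under the fold threshold. Non-overlapping groups were seen for 3 of 9 (SEPW1 and SELK higher and SEPHS2 lower in NRF2 cells), against 24.7% of all genes. GPX1 stood at 0.05 and SEPW1 at 0.08 on the log2FC scale, and neither passed the p threshold.

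Without Cyss, SEPW1 alone of the 9 passed both thresholds, with less mRNA in NRF2 cells than in GFP cells. Over 17297 genes, 4.09% were lower, 5.98% higher and 10.1% called in either direction. The groups did not overlap for 6 of the 9 genes, against 38.2% of all genes. SEPW1, GPX1, SEPHS2 and SELK were lower in NRF2 cells, and SEPN1 and the barely detected GPX3 higher. The log2FC of SEPW1 was -0.37 (SE 0.0613, edgeR adjusted p = 0.00188). The 3 NRF2 libraries, at most 27.7 CPM, lay below the lowest GFP library at 32.3 CPM. DESeq2 also called SEPW1 alone, and the value was -0.37 (edgeR adjusted p = 0.00520) without the GFP library that stood apart.

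Smaller differences that passed the p threshold but not the fold threshold were found in the same comparison for 4 further genes. Of all 17297 genes, 28.8% had an adjusted p below 0.1 there. GPX1 had 99.99, 108 and 106 CPM in GFP cells against 87.6, 89.0 and 96.9 CPM in NRF2 cells, with no overlap and a log2FC of -0.21 (SE 0.0533, edgeR adjusted p = 0.0171). SELK had 47.0, 45.2 and 47.2 CPM against 37.8, 40.6 and 44.5 CPM, at -0.19 (SE 0.0616, edgeR adjusted p = 0.0424). SEPHS2 was at -0.15 (edgeR adjusted p = 0.0560), and SEPN1 went the other way at 0.13 (edgeR adjusted p = 0.0941), with 49.8, 52.3 and 53.2 CPM in GFP cells against 59.0, 55.4 and 57.0 CPM in NRF2 cells. Without the GFP library that stood apart, SELK, SEPHS2 and SEPN1 had adjusted p of 0.108, 0.101 and 0.106, and GPX1 0.0506. GPX3 had 8, 4 and 7 reads against 14, 9 and 11, with a 95% interval for the log2FC from -0.07 to 1.56.

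**Figure D3:**
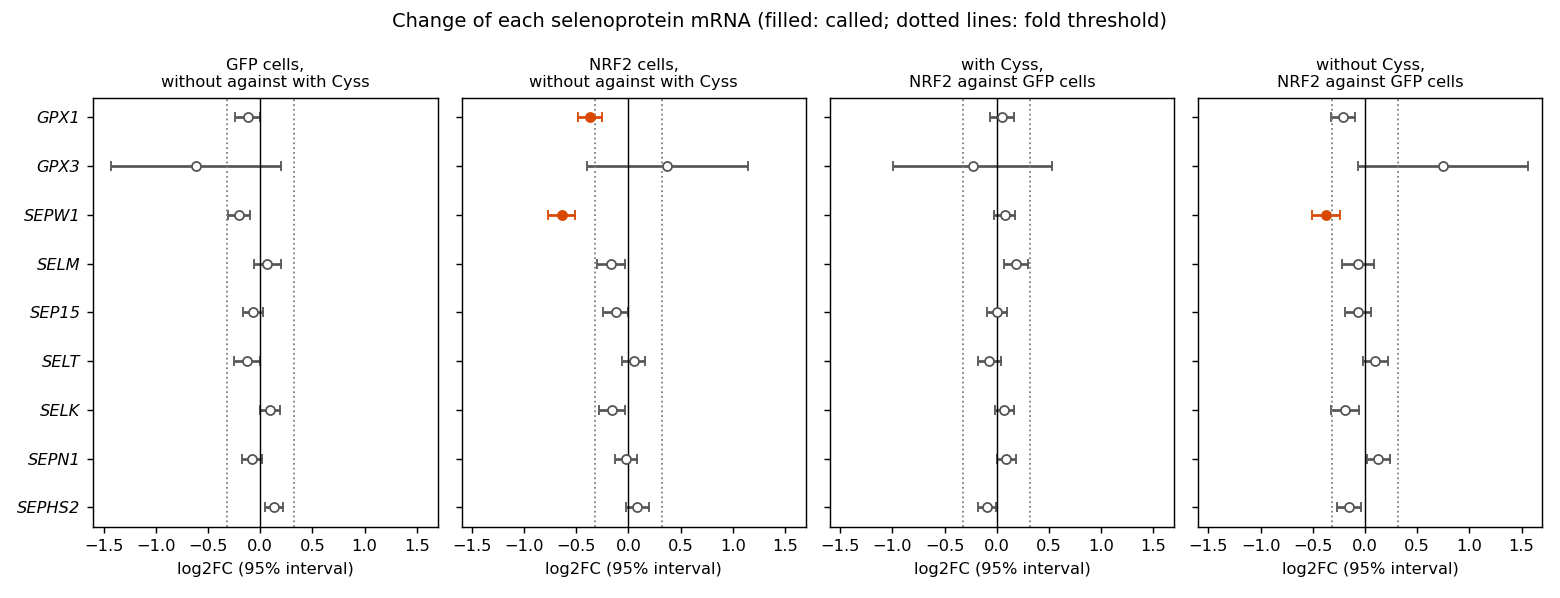
The log2FC of each selenoprotein is shown with its 95% interval in the 4 comparisons, 6 libraries each, with filled points for genes called and dotted lines at the fold threshold of 0.32. The filled points are SEPW1 (-0.64) and GPX1 (-0.37) for Cyss deprivation of NRF2 cells and SEPW1 (-0.37) for NRF2 against GFP cells without Cyss.

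The response to Cyss deprivation was then compared directly between both populations, by the interaction term over all 12 libraries, for which an adjusted p below 0.1 alone was required. It was called negative for 3 of the 9 selenoproteins, where 6.13% of 17674 genes were called negative, 8.97% positive and 15.1% in either direction. Whether called or not, the term was below 0 for 6 of the 9. The share of all genes depends on single libraries: called in either direction were 7.86% without replicate 2 of GFP without Cyss, 8.77% without replicate 3 of NRF2 with Cyss and 9.72% without replicate 1 of GFP with Cyss. The number called negative moved from 1084 to between 482 and 1562 over the 12 fits. DESeq2 called the same 3 genes. They were SEPW1, at -0.44 (SE 0.0770, edgeR adjusted p = 0.00212), SELK, at -0.25 (SE 0.0748, edgeR adjusted p = 0.0418), and GPX1, at -0.25 (SE 0.0826, edgeR adjusted p = 0.0670). In SEPW1 both populations went down and NRF2 cells went further, -0.64 against -0.20. In SELK the GFP value was 0.10 and the NRF2 value -0.16. In GPX1 the values were -0.12 and -0.37.

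SEPW1 and SELK kept their call whichever of the 12 libraries was left out. GPX1 lost it, with an adjusted p of 0.118 to 0.169, in 6 of the 12 cases: without replicate 1 or 3 of GFP with Cyss, replicate 2 of GFP without Cyss, replicate 3 of NRF2 with Cyss, or replicate 1 or 2 of NRF2 without Cyss. SELM, at -0.24 (SE 0.0965, edgeR adjusted p = 0.133), was the reverse case. It was called, with an adjusted p of 0.0319 to 0.0995, without replicate 2 of GFP with Cyss, replicate 3 of GFP without Cyss, replicate 2 of NRF2 with Cyss or replicate 3 of NRF2 without Cyss. For SELT the term was 0.18 (edgeR adjusted p = 0.172) and for SEP15, SEPHS2 and SEPN1 it lay between -0.06 and 0.05. GPX3 gave 0.99 with a 95% interval from -0.08 to 2.06.

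**Figure D4:**
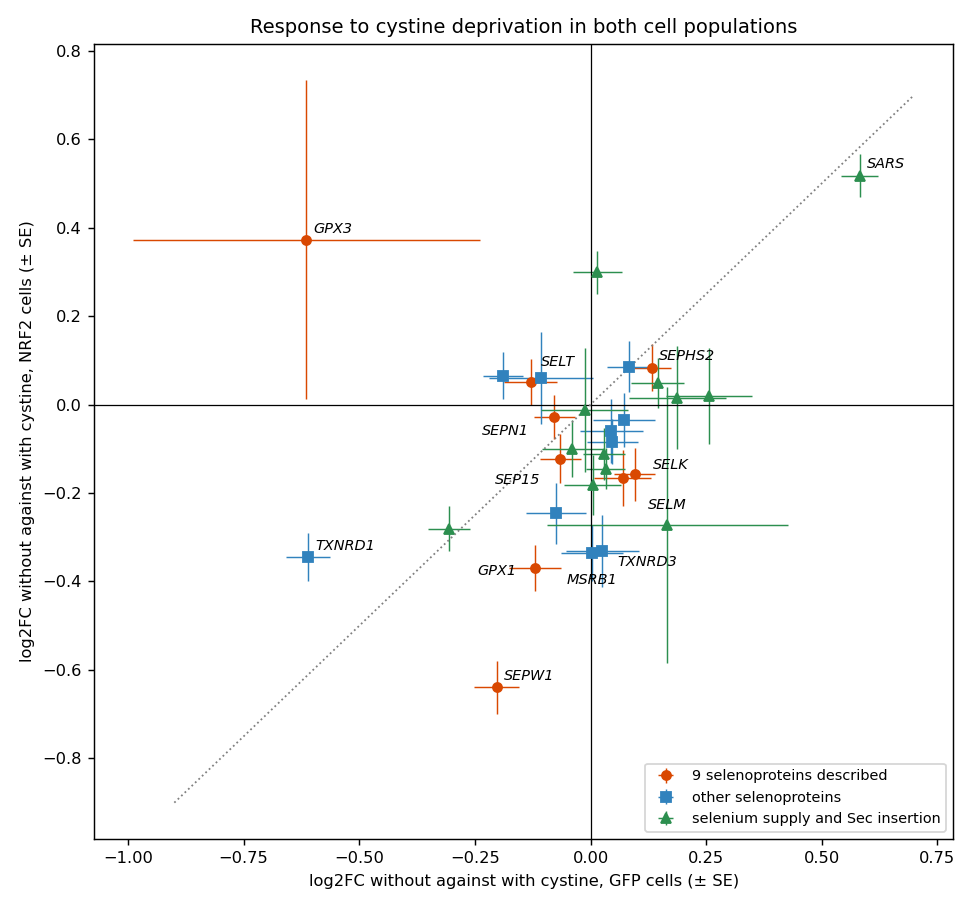
The log2FC on Cyss deprivation is plotted for GFP cells (x axis) against NRF2 cells (y axis), each with its SE, for the 9 selenoproteins, the other selenoproteins tested and the genes of selenium supply and selenocysteine insertion, with equal responses on the dotted line. SEPW1 (-0.20 and -0.64) and GPX1 (-0.12 and -0.37) lie below the line, TXNRD1 (-0.61 and -0.34) above it, and SARS (0.58 and 0.52) rose in both.

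The remaining selenoprotein genes were listed as 16 genes in 17 entries, of which 10 were abundant enough to test. TXNRD1, cytosolic thioredoxin reductase and a known NRF2 target, was the 1 gene of 10 called lower in GFP cells without Cyss. Of all genes, 0.533% were called lower there. In those cells it went from 357, 349 and 354 CPM to 218, 226 and 251 CPM, a log2FC of -0.61 (SE 0.0479, edgeR adjusted p = 3.84e-06). In NRF2 cells 3 of 10 were called lower, against 5.14% of all genes. They were TXNRD1 at -0.34, the testis-enriched reductase TXNRD3 at -0.33 (SE 0.0817, edgeR adjusted p = 0.00921) and the methionine sulphoxide reductase MSRB1 at -0.34 (SE 0.0636, edgeR adjusted p = 0.00151). None was called higher in either population. NRF2 raised TXNRD1 and DIO2, which activates thyroid hormone, both with Cyss (0.35 and 0.35) and without (0.60 and 0.50), although DESeq2 called DIO2 only without Cyss. Of all genes, 1.36% were called higher in NRF2 cells with Cyss and 5.98% without. GPX4 was called in no comparison, with log2FC from -0.08 to 0.13. The interaction was called positive for TXNRD1 (0.27) and for EPT1, an ER phospholipid synthase (0.25), and called negative for TXNRD3 (-0.36) and MSRB1 (-0.34). Of all genes, 8.97% were called positive and 6.13% negative.

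MSRB1 followed the course of SEPW1 and GPX1 in the NRF2 cells, at 33.2, 29.7 and 32.2 CPM with Cyss and 24.0, 24.6 and 26.8 CPM without, whereas GFP cells had 28.2 to 32.9 CPM in all 6 libraries. Among the 5 selenoproteins that fell in NRF2 cells, the selenocysteine codon was more than 50 bases before the last junction in SEPW1 and GPX1, 34 bases before it in MSRB1, and past it, in the last exon, in TXNRD1 and TXNRD3 (a distance of -63 bases in both). Whether tested or not, 7 of the 9 genes described and 8 of the 16 others had a codon more than 50 bases before it. A part of this distance in the falls was not tested.

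Of the 13 genes of selenium supply and selenocysteine insertion, 12 were tested. Only SARS was called in the 4 comparisons. It encodes the seryl-tRNA synthetase that charges ordinary serine tRNAs as well as the selenocysteine tRNA, and it rose without Cyss in GFP cells (0.58, SE 0.0409) and in NRF2 cells (0.52, SE 0.0490). Of all genes, 1.57% and 6.81% were called higher there. LRP8 passed the p threshold and not the fold threshold in all 4. Its log2FC was -0.31 in GFP cells and -0.28 in NRF2 cells without Cyss, and 0.25 for NRF2 with Cyss and 0.26 without. NRF2 changed none of the 12 by both thresholds, with 3 at an unadjusted p below 0.05 with Cyss and 5 without, and 0 by DESeq2 in both media. For scale, SEPN1 had an unadjusted edgeR p of 0.0498 with Cyss and ranked 3315 of 17449 genes. Without Cyss it had 0.0263 and ranked 4842 of 17297. The interaction was called positive for SECISBP2L (0.28), a paralogue of the SECIS-binding protein. It was called negative for SEPHS1 (-0.18), the selenocysteine-free paralogue of SEPHS2. Of all genes, 8.97% were called positive and 6.13% negative.

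Relatives of selenoproteins that use cysteine in place of selenocysteine numbered 7, with 6 tested. None was called in GFP cells without Cyss, where 1 had an unadjusted p below 0.05 and DESeq2 called 0. That gene, GPX8, ranked 1204 of 17452 genes by p. With Cyss, none of the 6 differed between NRF2 and GFP cells by both thresholds, again with 1 at an unadjusted p below 0.05 and 0 by DESeq2. Here it was MSRB3, which ranked 2196 of 17449 genes by p. MSRB2, a mitochondrial methionine sulphoxide reductase, was the 1 of 6 called in NRF2 cells without Cyss (-0.39, SE 0.148, edgeR adjusted p = 0.0763) and in NRF2 against GFP cells without Cyss (-0.44, SE 0.153, edgeR adjusted p = 0.0599), though at only 1.81 to 3.21 CPM and by edgeR alone. Of all genes, 5.14% and 4.09% were called lower in these comparisons. The interaction was called negative for 3 of the 6, against 6.13% of all genes. They were GPX8 (-0.19), an ER peroxidase, MSRB2 (-0.62) and MIEN1 (-0.27), a SEPW1-like protein, of which DESeq2 called GPX8 and MSRB2.

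Across the 12 libraries, log2 CPM of SEPW1 and GPX1 had a Pearson correlation of 0.936, the highest of any pair among the 9 genes. These points share 4 groups and their libraries, so the value describes mainly the same order of groups. Among 13528 genes with a mean of at least 50 reads, the genes closest to SEPW1 were HFE (0.980), EXOSC9 (0.971) and LMAN2L (0.968). For GPX1 they were TREX1 (0.976), TSEN34 (0.959) and FEN1 (0.952).

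Promoters were searched for the core of the antioxidant response element, to which NRF2 binds, written TGACNNNGC, on both strands. It can overlap an AP-1 site, which begins with the same TGAC. RefSeq windows on GRCh38.p14, 250 bases before to 50 after the transcription start, were at hand for 8 of the 9 genes, and 2 of the 8 held a match, SEPN1 and SELK. Of 35116 windows of this length in the table, 13.3% held one. The stretches around both matches are shown, with 1 from TXNRD1 for comparison. TXNRD1 held more than the match shown, with 2 in that window and 1 in a window at another start site. Each runs 5′ to 3′ along the strand of its gene, for SELK the minus strand, with the match in capitals.
SEPN1, chr1:25800058-25800086: ccggtgtagcTGACCCCGCcccgggctct
SELK, chr3:53891958-53891986: gtcgcagatgTGACGATGCaaaaacgccc
TXNRD1, chr12:104215670-104215698: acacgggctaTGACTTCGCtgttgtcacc

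SEPN1 lies on the plus strand, with its match 125 bases before the start, and SELK on the minus strand, with its match 117 bases before the start. The windows of SEPW1 and GPX1, the 2 genes called on Cyss deprivation of NRF2 cells, held no match, nor did those of GPX3, SEP15, SELT and SEPHS2. A second motif, the TGATGNAA core bound by ATF4 and C/EBP factors in the amino acid response, was in none of the 8 and in 3.62% of all windows. A match is a description of the letters and not evidence of binding.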

How the data were processed

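Reads per gene were deposited by the authors as raw counts, 1 per library. The authors sequenced single-end TruSeq mRNA libraries, mapped the reads to hg19 with TopHat2 2.1.0, using Bowtie, and counted them with HTSeq 0.11.2 without regard to strand. Overlapping and antisense genes therefore cannot be separated. The gene annotation used for counting is not given in the sources used here. The 5 HTSeq rows that name no gene held 15.9% to 17.1% of each library and were left out, as were 523 genes named as rRNA, which the authors also removed, leaving 55242.

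Counts were tested with edgeR 4.0.16 (R 4.3.3) by its quasi-likelihood test, with TMM factors computed on the genes tested. A gene was tested when its normalized counts averaged 10 or more in a group of the comparison. Each comparison used the 6 libraries concerned and the interaction used all 12. Calls needed an adjusted p below 0.1 over all genes tested and, between groups, a log2FC above 0.32 in size, as in the study's figure legends. Its methods text gives an adjusted p below 0.05, which was an alternative. DESeq2 1.42.0 was an alternative. CPM used TMM factors of all 12 libraries. The script was tested on simulated data. Replicate libraries differed by more than sampling noise, most of all replicates 1 and 3 of NRF2 cells without Cyss (chi-square per degree of freedom 11.7). Sequences came from GENCODE 44 lifted to GRCh37 and from RefSeq on GRCh38.p14, and older symbols were matched through RefSeq synonyms. Coordinates of the 2 builds were not mixed.

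All 9 genes were tested in every comparison, though the text does not name each of them for each comparison. Genes of the other lists were counted and those called were named, with TXNRD1, GPX4 and NFE2L2 throughout, and the 3 genes best correlated with each selenoprotein called between groups. The 9 genes and the lists were chosen with earlier results of these data known.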

Additional observations from a re-analysis of the deposited data

Results flagged for a closer look

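The response to Cyss deprivation differed between GFP and NRF2 cells, by the interaction test, for 3 of the 9 selenoproteins. Over 17674 genes, 15.1% were called in either direction and 6.13% were called negative, shares that depend on single libraries. The term was -0.44 for SEPW1, -0.25 for SELK and -0.25 for GPX1 on the log2 scale, so that for each of them the log2FC on deprivation took a lower value in the NRF2 population. The SEPW1 term was the only one of the 3 above 0.32 in size, and the GPX1 term was lost without any 1 of 6 libraries, as given above. No group held the 4 libraries needed to test for a library far from the rest of its group.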

How the results depend on the processing

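The number of the 9 genes called stayed within 1.5 times the reported number in 85 of 90 alternatives. The exceptions concern the fold threshold. With the adjusted p alone, 2 genes were called in GFP cells without Cyss (SEPHS2 up, SEPW1 down), against 5.92% of all genes. In NRF2 cells without Cyss 4 were called (GPX1, SELK, SELM and SEPW1, all down), against 29.0%. For NRF2 with Cyss it was 1 (SELM, up), against 6.43%. For NRF2 without Cyss 5 were called (SEPN1 up, and GPX1, SELK, SEPHS2 and SEPW1 down), against 28.8%. A fold threshold on the interaction left 1, SEPW1, against 7.62% of all genes. Leaving out 1 library kept the number at 0, 2, 0 and 1 in the 4 comparisons and moved that of the interaction between 2 and 4. Replicate numbers were not taken as pairs, because deviations of same-numbered libraries did not correlate above 0.1 in every pair of any comparison (from -0.24 to 0.27 in all). In NRF2 cells all 3 pairs were positive (0.097, 0.22 and 0.19) and 6 of 6 libraries correlated best with their own number, a hint from the data and not the design, against 2, 2 and 4 of 6 in GFP cells, with Cyss and without Cyss. The replicate block gave 0, 2, 0 and 1 genes and, in the interaction, 4, adding SELM (edgeR adjusted p = 0.0992). GPX1 left the interaction at an adjusted p below 0.05.

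Among 805 values of single genes, 16 changed sign, all with an adjusted p of at least 0.773 and so near 0. For SEP15, NRF2 with Cyss, these were -0.00015 with DESeq2 size factors, -0.00017 with the DESeq2 test, -0.00060 with rRNA genes kept, -0.010 without a filter and -0.010 with TMM factors from all genes (an alternative chosen after seeing the data), and from -0.027 to 0.050 without 1 library. By library size only, SELT in NRF2 cells was -0.0082 and the SEPN1 interaction -0.0018. Without 1 library, the SEP15 interaction ran from -0.11 to 0.0022, SELM from -0.0041 to 0.11 in GFP cells and from -0.13 to 0.010 for NRF2 without Cyss, and SELT from -0.0015 to 0.089 in NRF2 cells and from -0.11 to 0.0023 for NRF2 with Cyss. The cause was not tested. Scaling by library size only turned the calls over all genes from 1176 up and 887 down to 936 and 1397 in NRF2 cells, from 1034 and 708 to 876 and 1001 for NRF2 without Cyss, and from 1585 and 1084 to 1124 and 1981 in the interaction. The depth of GPX3, 4 to 15 reads per library, did not allow a statement on it.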
